A study of Mus musculus with 32 samples.

Results

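The voltage-gated cation channel genes were taken as a set across brain development and across loss of Dhcr7. They comprised every symbol of the Scn alpha and beta, Cacna1, Cacna2d, Cacnb, Kcna, Kcnb, Kcnc, Kcnd and Kcnh families and 4 Kcnq genes, chosen by name alone, which gave 61 of the 55291 symbols in the count tables. The set held 10 sodium channel alpha and 4 beta genes, 10 calcium channel alpha1, 4 alpha2delta and 4 beta genes, and 29 potassium channel genes (8 Kcna, 2 Kcnb, 4 Kcnc, 3 Kcnd, 8 Kcnh and 4 Kcnq). RNA came from whole brains of C57BL/6J mice, either WT (Dhcr7+/+) or KO (Dhcr7-/-), taken from embryos at stage E12.5, at stage E14.5 and at stage E16.5 and from newborns (PND0), with 4 libraries in each of the 8 groups. Dhcr7 makes the enzyme of the final step of cholesterol synthesis, and its loss in mice serves to model the human disorder Smith-Lemli-Opitz syndrome. The deletion is not limited to a cell type, no other allele or treatment is named, and the labels give neither litter nor sex, so p-values measure the spread between these libraries.

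Voltage-gated channels open when the membrane depolarises. Sodium channel alpha subunits form the pore that carries the upstroke of the action potential, and beta subunits set its gating and anchor it. Calcium channel alpha1 subunits form pores that couple depolarisation to transmitter release, bursting and gene expression, while alpha2delta and beta subunits carry them to the membrane. Potassium channel alpha subunits assemble in fours to repolarise the cell, set its threshold and limit its firing rate. In developing brain, young neurons are known to replace embryonic channel types with mature ones as they begin to fire.

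Within a family the genes are close relatives, which bears on how reads can be assigned to them. The longest annotated transcripts of all 180 within-family pairs were compared (GENCODE M21), and 2 pairs, both among sodium channel alpha genes and with Scn2a and Scn3a among their members, shared a run as long as the 150-base reads. A read that falls wholly inside such a run could come from either gene, so the levels of Scn2a and Scn3a carry that small uncertainty.

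The potassium channel genes share the codons of the selectivity filter, the loop that lets potassium pass and holds sodium back. The coding sequences were read in frame for the 4 filter codons, with the third base of each codon free. Each of the 21 Kcna, Kcnb, Kcnc, Kcnd and Kcnq genes held the common form exactly once, and each of the 8 Kcnh genes held its own form exactly once. Neither group held the other's form. Of the 30 sodium and calcium channel genes with an annotated coding part, none held the first form and 5 held the second. The matched codons are in capitals for 5 genes to which the results below return (GENCODE M21).
Kcna1: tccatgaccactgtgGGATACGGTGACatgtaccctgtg
Kcna3: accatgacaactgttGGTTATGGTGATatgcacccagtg
Kcnc4: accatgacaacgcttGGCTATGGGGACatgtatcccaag
Kcnd2: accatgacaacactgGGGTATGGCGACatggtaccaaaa
Kcnh2: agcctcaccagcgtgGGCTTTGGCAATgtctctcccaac
Codon choice differed between all 5 lines while the fixed letters of each form were kept.

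Library totals ran from 13.87 to 28.32 M counts, and a count of 0 allows up to 3 counts, which is 0.106 to 0.216 CPM (counts scaled to library size) depending on the library and covers counting error only. Dhcr7 was lower in every KO library than in any WT library of its stage, at 89.2 ± 19.6 CPM in WT and 14.4 ± 2.01 CPM in KO at PND0 (SD, n = 4 each). The neuron marker list summed to between 2221 and 5664 CPM in all 32 libraries. E12.5 KO replicate 1 stood apart: it was the lowest of the 8 libraries of its stage for 31 of the 53 channel genes tested there, and 5.64% of its counts were of CT010467.1, a ribosomal RNA gene, against 0.191% to 0.376% in the other 7. E12.5 WT replicate 1 was the lowest for 14 and had 138 CPM of skeletal muscle markers, against 8.93 to 40.3 CPM in the other 7. The KO against WT counts and medians at E12.5 are given with and without each of these, and WT values from E12.5 are given again without WT replicate 1 where a call or an overlap changed.

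Kcna10 had 0 counts in all 32 libraries, and Kcna7 and Scn4a never passed the filter on low counts. Scn4a and Cacna1s, the pore genes of skeletal muscle, were highest at E12.5 in WT replicate 1, the library with most muscle marker RNA, at 0.723 and 1.57 CPM. Scn10a, a gene of sensory neurons, had 7.29 CPM in that library and 0.254 to 0.366 CPM in the other 3 WT libraries. In whole brain, fewer cells of a type and less RNA per cell cannot be told apart.

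**Figure D1:**
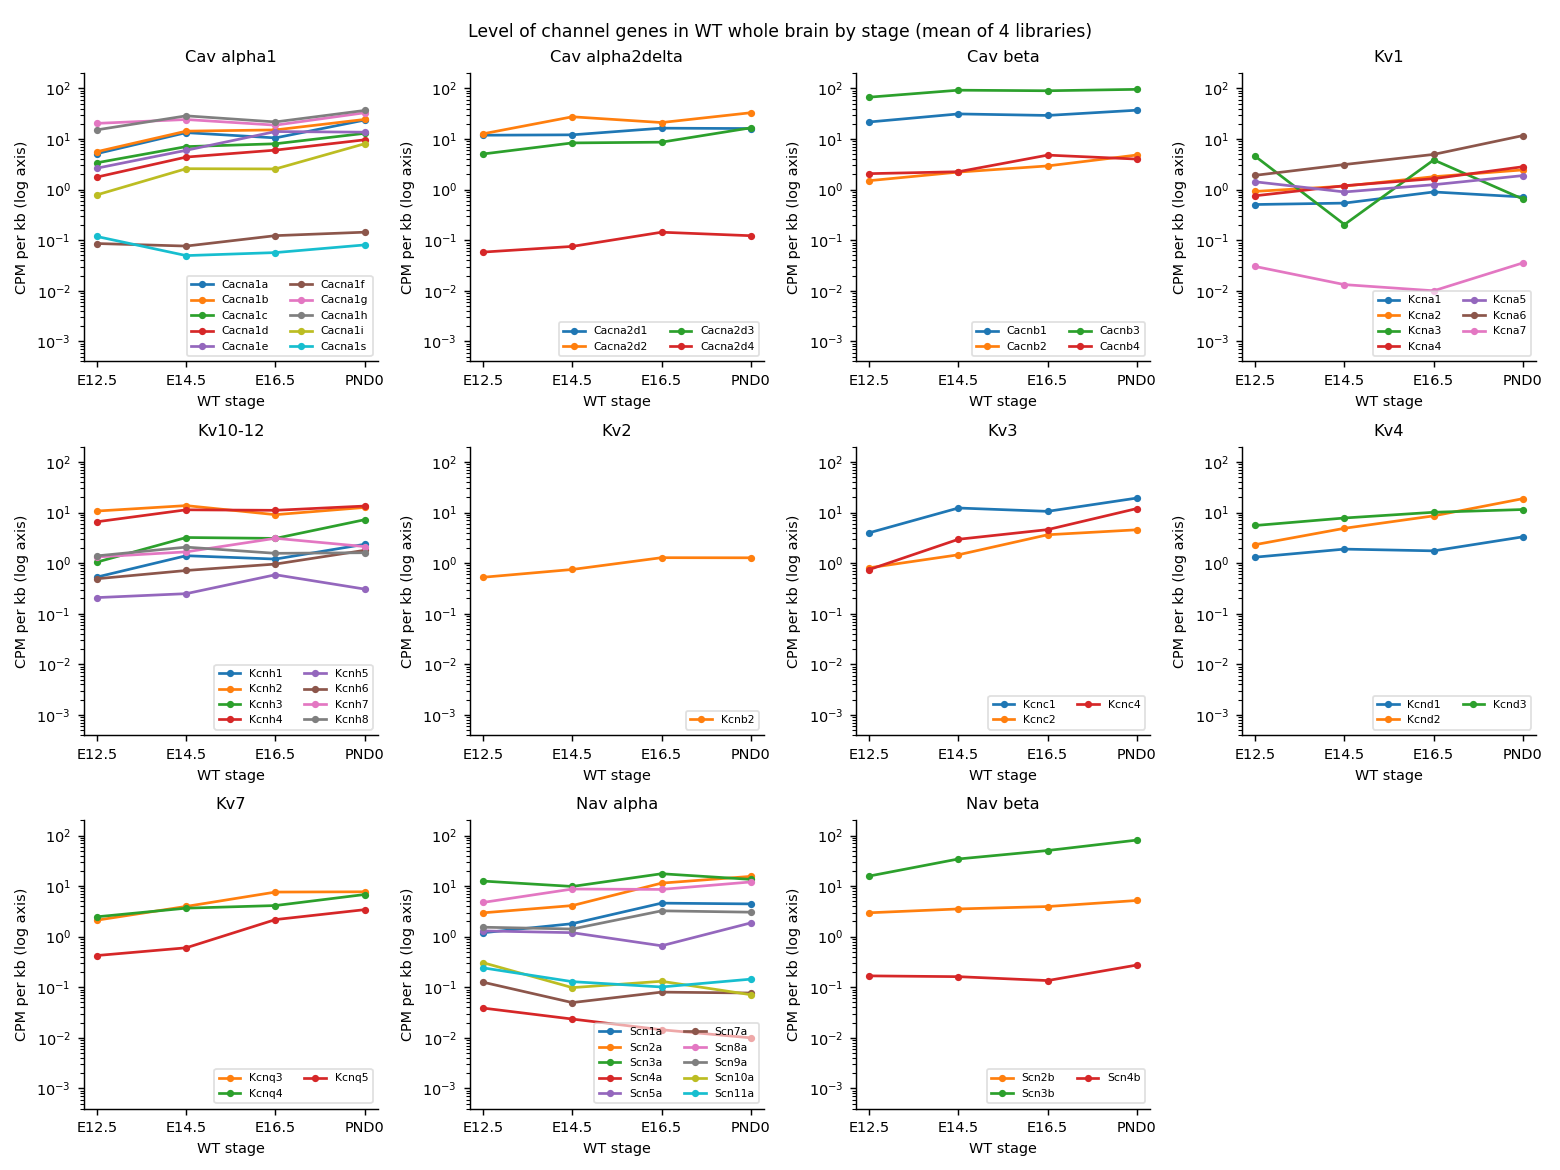
Level of channel genes in WT brain at the 4 stages, as CPM per kb of the longest annotated transcript (log axis, mean of 4 libraries; values under 0.01 are drawn at 0.01, Kcna10 and the genes not reported here are not drawn). Kv1, Kv2, Kv3, Kv4, Kv7 and Kv10-12 are the Kcna, Kcnb, Kcnc, Kcnd, Kcnq and Kcnh genes. Most lines rise from left to right; Kcna3 swings down, up and down.

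The first question was how channel expression changed in WT brain from E12.5 to birth. Of 61 channel genes, 56 were tested between E12.5 and PND0; 44 rose and 1 fell (edgeR quasi-likelihood test, Benjamini-Hochberg adjusted p under 0.05 over all genes), while 34.5% of all 17681 tested genes rose and 36.4% fell. The median log2 change was 1.42 for the channel genes and -0.05 for all tested genes. By family the count that rose was 8 of 10 calcium alpha1, 3 of 3 alpha2delta, 4 of 4 calcium beta, 4 of 8 sodium alpha, 3 of 4 sodium beta, 3 of 6 Kcna, 3 of 3 Kcnd and 6 of 8 Kcnh genes tested. The gene that fell was Kcna3. Without E12.5 WT replicate 1, 45 of 57 rose and 1 fell, with a median of 1.32. Stage and count table coincide, so a difference between tables cannot be told apart from stage.

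Among the sodium channel alpha genes, Scn2a gained share and Scn3a lost it. Scn3a, the alpha subunit of embryonic neurons, was at 81.5, 106, 161 and 132 CPM in the 4 WT libraries at E12.5 and at 121.6, 125.2, 144.5 and 128.3 CPM at PND0. These ranges overlapped, and the change did not pass the test (log2 0.14, SE 0.167, adjusted p = 0.458, edgeR). Scn2a, which serves the axon of young excitatory neurons, was at 17.1, 23.0, 38.6 and 27.2 CPM at E12.5 and at 149, 129, 166 and 113 CPM at PND0, with no overlap (log2 2.42, SE 0.215, adjusted p = 2.45e-06, edgeR). Measured per kb, Scn3a made up 49.5% ± 5.67 of the alpha subunit RNA at E12.5 and 26.7% ± 1.46 at PND0, and Scn2a 11.6% ± 1.93 and 30.5% ± 3.07 (SD, n = 4). At PND0 the shares of Scn2a (26.8% to 33.3%) and Scn3a (25.0% to 28.5%) overlapped between libraries. With the median instead of the longest transcript length Scn8a held the largest share at both ages, 57.7% and 55.5%, so the order depends on the length used while the fall of Scn3a and the gain of Scn2a do not.

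Among the sodium channel beta subunits, Scn3b held 77.0% ± 7.01 of the family per kb at E12.5 and 83.0% ± 1.10 at PND0. Scn3b rose at each of the 3 steps between neighbouring stages, from 65.6 ± 19.4 to 337 ± 37.5 CPM (log2 2.39, SE 0.185, adjusted p = 9.11e-07, edgeR). Scn2b, which links covalently to the pore, rose by less (log2 0.84, SE 0.111).

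Per kb of the longest transcript, the low-threshold pore genes Cacna1g and Cacna1h led the calcium channel alpha1 family at both ages. Cacna1g held 36.6% ± 8.99 of the alpha1 RNA per kb at E12.5 and 20.3% ± 1.72 at PND0, and Cacna1h 27.7% ± 3.21 and 22.8% ± 2.85. With the median transcript length Cacna1h still led, at 49.1% and 33.3%, but Cacna1g held 10.9% and 4.82%, below Cacna1a at 17.6% and 22.7%. Both rose in level, Cacna1h by log2 1.31 (SE 0.0840) with no overlap. Cacna1g rose by log2 0.72 (SE 0.199), and its groups overlapped only through E12.5 WT replicate 1, at 254.1 CPM against 127.1 to 152.3 CPM in the other 3; without that library the rise was log2 0.98 (SE 0.116) with no overlap. Their relative Cacna1i, which supports burst firing in thalamus, rose most of the family, from 4.28, 6.64, 11.5 and 8.39 CPM to 82.9, 92.2, 77.8 and 62.8 CPM (log2 3.38, SE 0.241, adjusted p = 5.12e-07, edgeR). The high-threshold genes Cacna1a and Cacna1b, whose channels drive transmitter release, rose by log2 2.23 (SE 0.111) and 2.15 (SE 0.166), and Cacna1d by 2.48 (SE 0.134). Of the auxiliary genes, Cacnb3 held 72.7% ± 2.11 and 67.6% ± 1.005 of the beta RNA at the 2 ages and rose by log2 0.55 (SE 0.0994), and Cacna2d2 held 42.3% ± 4.07 and 50.2% ± 1.05 of the alpha2delta RNA and rose by 1.41 (SE 0.143). With the median transcript length Cacnb3 held 60.9% and 54.5%, and Cacna2d2 27.1% and 30.6%, below Cacna2d1 (39.2%) and Cacna2d3 (32.9%) at E12.5 and below Cacna2d3 (46.0%) at PND0. Cacnb3 stood at 96.0 CPM per kb of its longest transcript in WT brain at PND0.

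**Figure D2:**
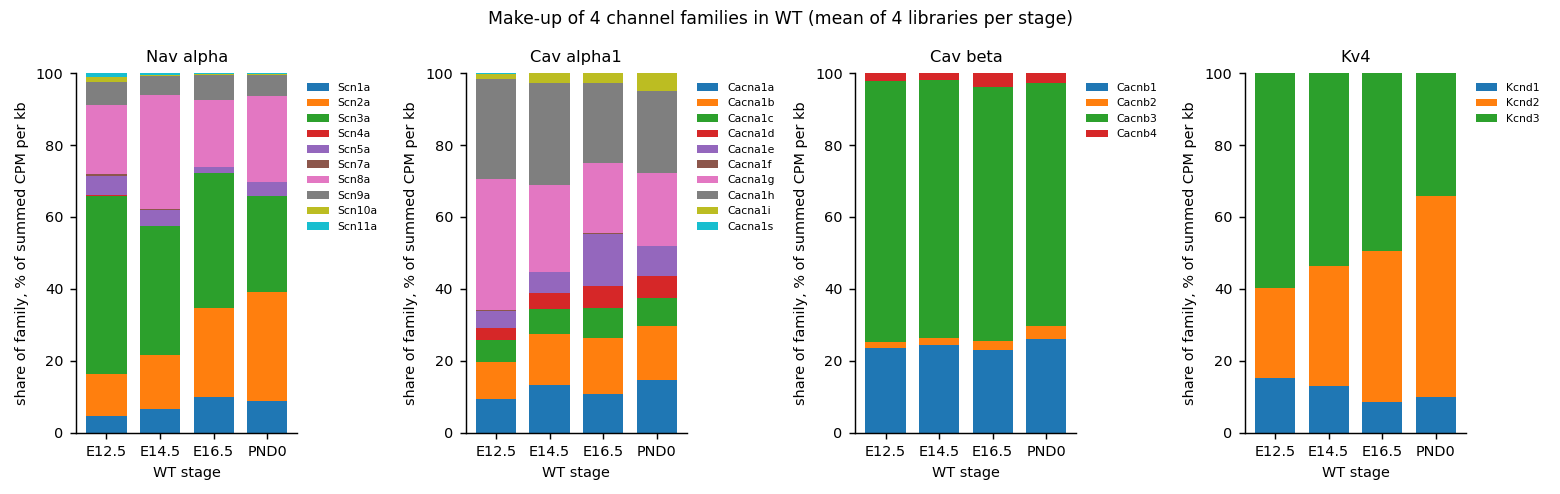
Share of the summed CPM per kb of longest transcript held by each gene of 4 families in WT brain at each stage (stacked bars, mean of 4 libraries; Nav is Scn, Cav alpha1 is Cacna1, Cav beta is Cacnb and Kv4 is Kcnd). Scn3a, Cacna1g and Kcnd3 lose share from E12.5 to PND0 while Scn2a and Kcnd2 gain it, and Cacnb3 holds most of its family at E12.5 and PND0.

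The Kcnc family forms channels that close fast enough to allow high firing rates. Kcnc4 had the greatest rise of any channel gene named here, starting at 1.99, 2.44, 3.97 and 2.54 CPM in the 4 WT libraries at E12.5. By E14.5 it read 11.5, 11.5, 9.32 and 11.1 CPM, by E16.5 it read 12.3, 21.5, 15.48 and 18.2 CPM, and at birth 33.3, 45.8, 55.6 and 41.5 CPM. No library of E12.5 came near any later one (log2 4.04, SE 0.220, adjusted p = 9.14e-08, edgeR, E12.5 to PND0). Its share of the family per kb went from 7.25% ± 1.05 to 24.7% ± 3.88, and with the median transcript length from 3.60% to 13.4%. Kcnc1 rose by 2.31 (SE 0.196) and held 38.2% ± 4.52 and 40.1% ± 1.19.

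In the Kcnd family, which carries the transient current of dendrites, Kcnd2 gained share. Kcnd3 held 59.6% ± 3.75 per kb at E12.5 and 34.2% ± 2.43 at PND0, and Kcnd2 25.3% ± 1.07 and 55.8% ± 2.30. Kcnd2 rose at every step, from 11.97 ± 3.37 to 97.1 ± 20.4 CPM (log2 3.05, SE 0.210, adjusted p = 4.04e-07, edgeR), and Kcnd3 by log2 1.08 (SE 0.215). With the median transcript length Kcnd3 still led at PND0, at 55.6% against 33.8%.

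The Kcnq family carries the M-current that holds neurons near rest. Kcnq5 rose by log2 3.05 (SE 0.272) from a level of 2.96 ± 1.31 CPM. In the Kcnh family Kcnh2, which also repolarises the heart, held 48.6% ± 3.62 and 31.0% ± 4.84 per kb and rose by log2 0.27 (SE 0.0899, adjusted p = 0.0209, edgeR), a call lost without E12.5 WT replicate 1 (log2 0.20, adjusted p = 0.0611). Kcnh4 held 29.0% ± 3.40 and 31.8% ± 6.20 and rose by 1.06 (SE 0.253). With the median transcript length Kcnh2 held 77.4% and 61.9%, and Kcnh4 8.38% and 11.7%.

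Kcna genes form channels of the axon and its terminals. Kcna6 held 19.6% ± 6.72 of the family per kb at E12.5 and 57.2% ± 7.66 at PND0 and rose at every step (log2 2.64, SE 0.187, adjusted p = 4.82e-07, edgeR). Kcna3, known best from lymphocytes and microglia and found in some neurons, did otherwise. Its WT libraries read 4.82, 9.81, 11.5 and 8.50 CPM at E12.5 and fell to 0.223, 0.319, 0.459 and 0.551 CPM by E14.5. They read 5.55, 6.84, 8.91 and 8.10 CPM by E16.5, and 0.622, 0.507, 1.62 and 2.19 CPM at birth. No neighbouring stages overlapped, and the steps were log2 -4.49, 4.25 and -2.56 (adjusted p = 5.55e-06, 2.36e-09 and 5.63e-05, edgeR). KO means followed the same course, at 6.66, 0.209, 6.76 and 0.321 CPM. The E12.5 mean includes KO replicate 1 with 16 counts of Kcna3, against 130 and 151 in KO replicates 2 and 4, with replicate 3 close to replicate 2. The microglia marker list had WT means of 40.3, 45.9, 49.9 and 60.3 CPM in stage order, and the part of microglia in the Kcna3 course was not tested. The lower, higher, lower course was found in 9.95% of the 16827 genes tested at all 3 steps, and Kcna3 was the 1 channel gene of 56 with it. The ribosomal RNA share was higher at E14.5 (0.869% to 2.68%) and PND0 (1.16% to 2.79%), the stages where Kcna3 was low, than in all but 2 libraries of the other stages. Of these 2, E12.5 KO replicate 1 (5.64%) had the fewest Kcna3 counts of its group. E16.5 WT replicate 1 (3.75%) read 5.55 CPM, the lowest WT value of its stage but above every WT library of E14.5 and PND0. The part of the ribosomal RNA share in the course was not tested. Between the stages that share the lower range, E12.5 and E16.5, Kcna3 differed by log2 -0.21 (adjusted p = 0.495, edgeR).

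Across the channel genes 9 of 56 rose at all 3 steps, which 5.01% of all genes did, among them Cacna1c, Cacna1d, Cacnb2, Kcna4, Kcna6, Kcnc4, Kcnd2 and Scn3b. A higher, lower, higher course was found in 6 of 56 and in 6.6% of all genes, among them Cacna1a, Cacna1h, Cacna2d2, Kcnc1 and Kcnh2. For the separate steps, 33 of 57 rose and 2 fell from E12.5 to E14.5 (27.3% and 30.5% of all genes; 37 and 3 without E12.5 WT replicate 1), 29 rose and 9 fell from E14.5 to E16.5 (29.3% and 28.2%), and 34 rose and 5 fell from E16.5 to PND0 (26.0% and 27.2%). Over 2 steps, 45 of 55 rose and 2 fell from E12.5 to E16.5 (29.2% and 30.0%), and 46 of 56 rose from E14.5 to PND0, where 30.6% of all genes rose and 30.2% fell. Most partner genes of the channels rose too from E12.5 to PND0, where 34.5% of all genes rose and 36.4% fell. The count that rose was 9 of 11 tested potassium channel partners, 8 of 8 electrically silent subunits and 10 of 12 calcium channel partners. It was 10 of 11 for sodium channel partners and initial segment genes, and 14 of 16 for other cation channels. Of the calcium channel partners 1 fell. Hcn2, a pacemaker channel, rose by log2 4.397 (SE 0.180), the adhesion protein Cntn1 by 4.14 (SE 0.212) and the spectrin Sptbn4 by 3.83 (SE 0.227). The 8 neuron markers had a median of 1.30 over the same interval.

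Promoter sequences are shown for Kcna3 and Kcnc4, the genes whose courses stood furthest apart. The windows run from 250 bases before to 50 after the RefSeq start (GRCm38.p6), with GGGCGG or its reverse complement CCGCCC in capitals.
Kcna3 (chr3:107035912-107036211, plus strand): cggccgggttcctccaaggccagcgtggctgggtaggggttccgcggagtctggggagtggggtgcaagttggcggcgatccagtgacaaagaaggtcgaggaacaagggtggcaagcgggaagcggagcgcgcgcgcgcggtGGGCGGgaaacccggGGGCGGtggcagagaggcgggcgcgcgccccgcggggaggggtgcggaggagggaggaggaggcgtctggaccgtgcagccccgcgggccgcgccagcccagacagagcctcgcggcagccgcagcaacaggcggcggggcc
Kcnc4 (chr3:107458849-107459148, minus strand): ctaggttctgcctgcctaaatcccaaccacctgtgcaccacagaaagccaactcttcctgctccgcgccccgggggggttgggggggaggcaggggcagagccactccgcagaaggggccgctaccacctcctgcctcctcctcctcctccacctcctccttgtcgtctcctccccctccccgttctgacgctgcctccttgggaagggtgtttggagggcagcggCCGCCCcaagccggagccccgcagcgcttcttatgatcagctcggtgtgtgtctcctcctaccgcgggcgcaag
The Kcna3 window held 2 matches and 37 CG pairs and the Kcnc4 window 1 and 17. Windows were matched for 44 of the 61 channel genes, and a gene counted if any of its windows held the letters. There were 32851 windows for 27025 genes, so genes with more windows had more chances to match. GGGCGG was on either strand in 27 (61.4%) of the channel genes, against 38.2% of the 27025 genes. TATAAA was in 2 (4.55%), Cacna1d and Scn2a, against 15.7%, and CAGGTG was in 10 (22.7%), against 22.6%. With the window richest in CG pairs taken for each gene, the median was 21 pairs in channel genes and 8 over all genes. A match describes the letters only.

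The second question was whether loss of Dhcr7 changed channel expression at each stage. At E12.5, E14.5 and E16.5 no channel gene passed the test; at PND0 3 were lower in KO, among them Scn8a.

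At E12.5, 0 of 53 tested genes were called, against 0.0177% of all genes, and 1 had an unadjusted p under 0.05, against 4.7% of all genes (edgeR; DESeq2 called 0). It was Scn2b, at 9.12 to 12.1 CPM in KO and 12.9 to 15.3 CPM in WT (log2 -0.35, SE 0.127, adjusted p = 0.875). Kcna5 (log2 -0.43) and Kcnh2 (log2 0.22) came next. The median was 0.10, with 31 of 53 positive, and 0.21 with 38 positive without KO replicate 1. It was just below 0 without WT replicate 1 (-0.01, 23 positive), without KO replicate 2 (-0.0039, 26 positive) and without KO replicate 4 (-0.0060, 25 positive), so its sign was not stable to leaving out 1 library. In each of these fits 0 channel genes were called. An unadjusted p under 0.05 was held by 0 channel genes without WT replicate 1, so that of Scn2b was lost, and by 5 without KO replicate 1 (edgeR). The shares of all genes with such a p in these 2 fits are not given here.

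At E14.5, 0 of 54 were called, against 0.527% of all genes, and 7 had an unadjusted p under 0.05, against 8.73% of all genes (edgeR; DESeq2 called 0). Kcnq3, a gene of the M-current, was at 53.2 ± 2.99 CPM in KO and 46.9 ± 4.21 in WT (log2 0.18, SE 0.0572, adjusted p = 0.204); without WT replicate 2 it was the 1 channel gene called, with 0.857% of all genes. Scn8a (log2 -0.10, SE 0.0432) and Cacna2d2 (log2 0.08, SE 0.0359) came next. The median was 0.03, and from -0.0050 (27 of 55 positive, without WT replicate 4) to 0.058 (without WT replicate 2) on leaving out 1 library. KO replicates 3 and 4 had 2.68% and 2.55% ribosomal RNA counts, against 0.869% to 1.17% in the other libraries of the stage. With that share as a covariate 0 channel genes were called (0.499% of all genes) and 3 had an unadjusted p under 0.05 (edgeR). The share of all genes with such a p in that fit is not given here.

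At E16.5, 0 of 55 were called, against 0.0462% of all genes. By unadjusted p under 0.05, 13 were higher and 0 lower, where 4.96% of all genes were higher and 6.58% lower. Of the 55, 46 were above 0, as were 8670 of all 17328 genes, with a median of 0.14. Cacna1d was at 59.6, 57.3, 59.1 and 57.3 CPM in WT and at 74.9, 62.9, 71.0 and 67.8 CPM in KO. Its groups did not overlap (log2 0.23, SE 0.0598, adjusted p = 0.240, edgeR). Cacna1b (log2 0.28, SE 0.0770, adjusted p = 0.282) came next. Without the filter on low counts 4 of 60 were called, Cacna1b, Cacna1i, Kcnc4 and Kcnq3 (0.678% of 34379 genes). DESeq2 called 1 of 18, Cacna1b (4.93% of the 3407 genes given an adjusted p). WT replicate 4 was the lowest of the 8 libraries for 25 of 55 genes and KO replicate 1 the highest for 23; without each in turn the median was 0.07 and 0.10, with 45 of the tested genes above 0 in both cases. WT replicate 1 had 3.75% ribosomal RNA counts, against 0.356% to 0.626% in the other 7 libraries; without it the median was 0.13, 43 genes were above 0 and 0 were called. Progenitor markers summed to 1502 to 1752 CPM in WT and 1316 to 1499 in KO, and their part in these values was not tested.

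**Figure D3:**
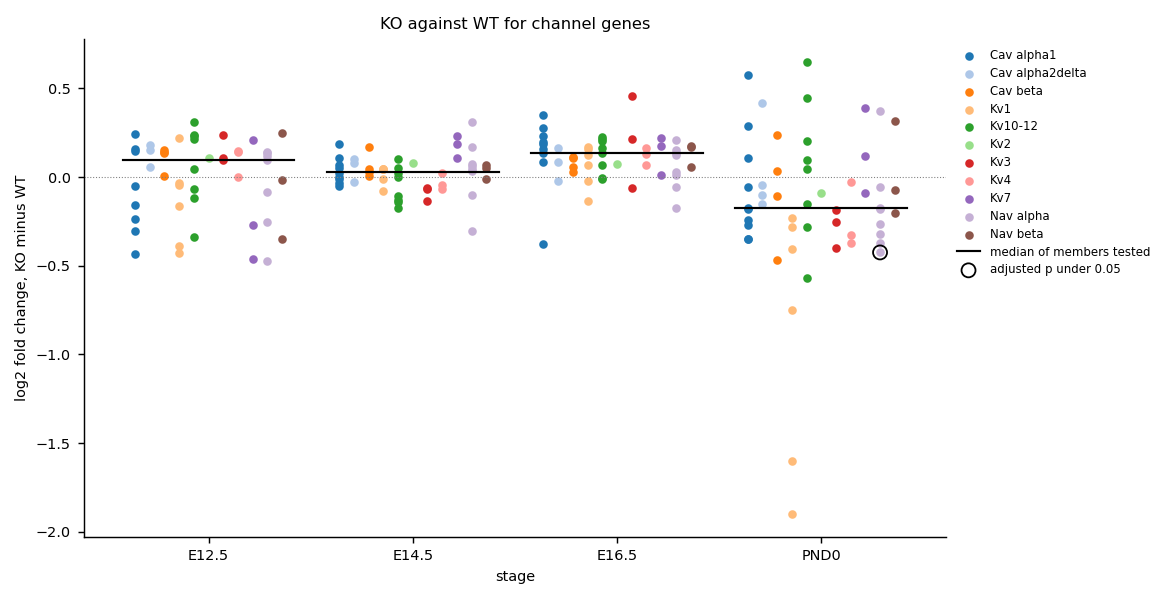
KO against WT log2 fold change of tested channel genes at the 4 stages (points; line, median over all tested channel genes; circles, adjusted p under 0.05; genes not reported here are not drawn). The median lies at 0.14 at E16.5 and at -0.17 at PND0, where the circled gene is Scn8a, lower in KO.

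At PND0, 3 of 57 tested genes were called, all lower in KO, against 1.03% of all genes lower and 1.44% in either direction. The share of all genes called lower rose with transcript length, from 0.092% under 2000 bases to 7.44% over 10000 bases. Channel transcripts are long, so 1.03% is not the share for genes of their length. Scn8a (ENSMUSG00000023033.14, GRCm38, chr15:100869858-101045938, plus strand), the sodium channel of the mature axon initial segment, read 131, 134, 151 and 137 CPM in WT and 102, 112, 90.4 and 109 CPM in KO. The groups did not overlap (log2 -0.42, SE 0.0830, adjusted p = 0.0236, edgeR). The 3 calls did not survive every omission: 0 were left on omitting WT library 1, WT library 3 or KO library 1, where calls over all genes were 0.348%, 0.197% and 0.214%, and 1, Scn8a, without KO replicate 2 (0.532% of all genes). Without the filter on low counts 14 of 60 channel genes were called (3.25% of 33525 genes), 12 of them lower. With DESeq2 it was 10 of 48 (7.19% of the 12809 genes given an adjusted p), 7 of them lower.

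**Figure D4:**
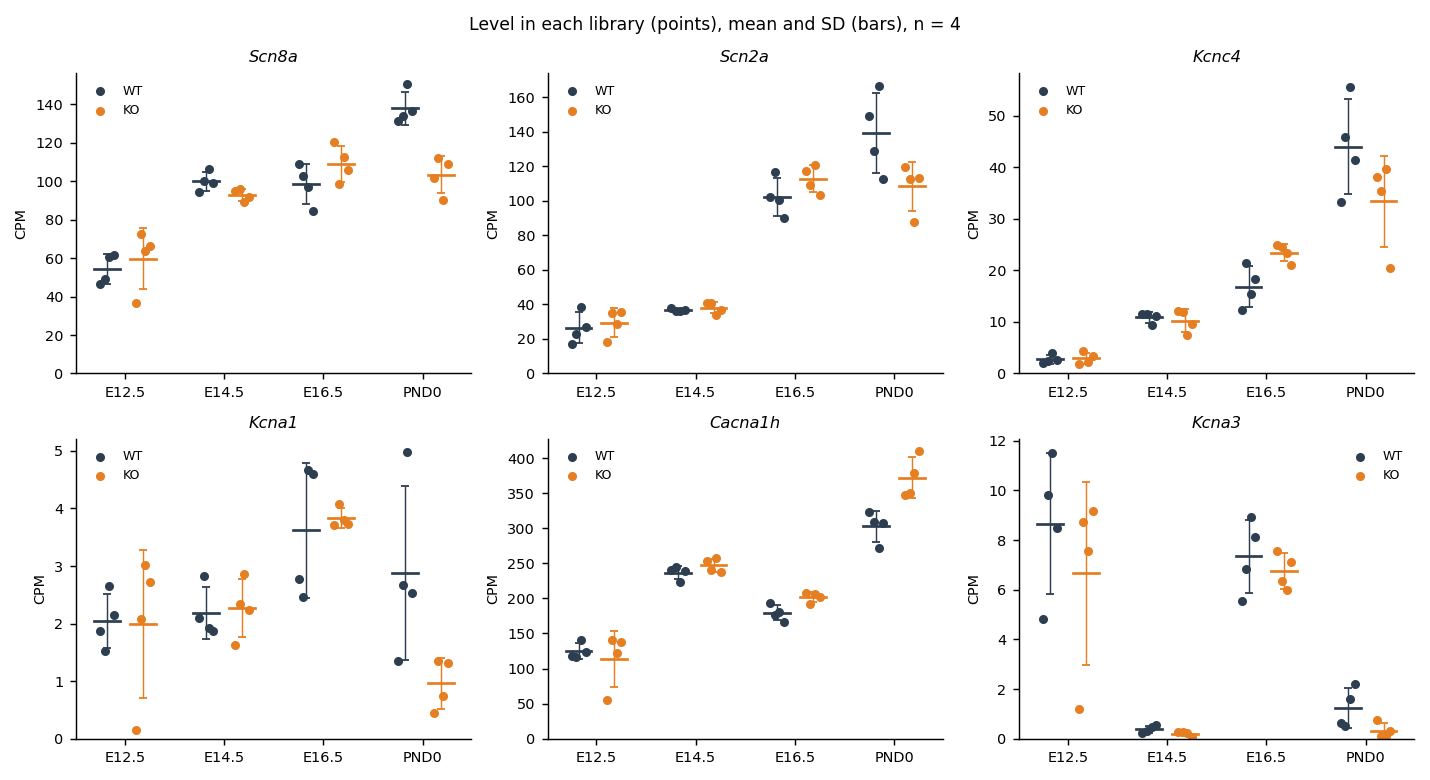
CPM of Scn8a, Scn2a, Kcnc4, Kcna1, Cacna1h and Kcna3 in each of the 32 libraries by stage and genotype (points; bars, mean ± SD of 4 libraries). At PND0 the KO points of Scn8a lie below all WT points and those of Cacna1h above them; Kcna3 is low at E14.5 and PND0 in both genotypes.

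Taken over all 57 tested channel genes, with the 3 called genes included, values leaned the same way at birth. The median was -0.17 (-0.0006 for all genes), 17 of 57 were above 0 (49.9% of all genes), and by unadjusted p under 0.05, 17 were lower and 6 higher (9.4% and 8.57% of all genes). Calcium channel genes split. Cacna1c (log2 -0.35, SE 0.0881, adjusted p = 0.0587) and Cacna1b (log2 -0.35, SE 0.0958, adjusted p = 0.0793) were below WT in every KO library. Cacna1h was above it, at 324, 309, 271 and 307 CPM in WT and 348, 351, 379 and 410 in KO (log2 0.29, SE 0.0782, adjusted p = 0.0747, edgeR).

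All 6 Kcna genes tested had values below 0 at PND0, with a median of -0.58, and none passed the test. Kcna1, a channel of axons and brainstem neurons, read 1.36, 2.66, 4.97 and 2.54 CPM in WT and 0.447, 1.35, 0.735 and 1.31 CPM in KO, a difference between low levels (log2 -1.60, SE 0.440, adjusted p = 0.0792, edgeR). Kcna3 (log2 -1.90, adjusted p = 0.129) and Kcna5 (log2 -0.75, adjusted p = 0.149) also had lower means in KO, at 0.321 and 3.25 CPM against 1.24 and 5.42 CPM in WT. The WT mean of Kcna5 includes replicate 4 at 8.312 CPM, with the other WT libraries at 4.186 to 4.881 CPM. The hindbrain and spinal cord marker list summed to 1.24 to 7.07 CPM in WT and 0.238 to 0.515 CPM in KO at PND0. Within it Slc6a5, a transporter of glycinergic neurons, was lower (log2 -3.14, SE 0.520, adjusted p = 0.0120, edgeR), and its 6 Hox genes were at 0 in every KO library and at no more than 0.647 CPM in any WT library. The part of hindbrain tissue in the Kcna values was not tested. Neuron markers summed to 4814 to 5664 CPM in WT and 5312 to 5528 in KO.

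Transcript length was then set beside these values. Channel transcripts are long, with a median of 6251 bases for the tested genes at PND0 against 3181 for all genes, and at PND0 longer genes had lower KO against WT values across the transcriptome (Spearman rho -0.34 over 17266 genes, which are not independent; -0.11 over the 57 channel genes). For genes under 2000 and of 2000 to 4000 bases the medians were 0.12 and 0.03 over all genes, and -0.81 and 0.04 over the 2 and 9 channel genes of those lengths (Kcna3 is 1 of the 2). For genes of 4000 to 6000, 6000 to 8000, 8000 to 10000 and over 10000 bases the medians were -0.07, -0.14, -0.15 and -0.19 over all genes, and -0.15, -0.24, -0.18 and -0.23 over the 17, 9, 12 and 8 channel genes of those lengths. Over all genes, 1.09%, 4.27%, 6.86% and 7.44% were called lower in these ranges from 4000 bases up, in the same order. Scn8a has a longest transcript of 11436 bases. With the length trend of each library taken out as an offset, the channel median was -0.02, 27 of 57 were above 0, and none of the 3 was called (Scn8a log2 -0.21, adjusted p = 0.213, edgeR). Cacna1h, at 8230 bases, was then called higher (log2 0.48, SE 0.0871, adjusted p = 0.0252), where 0.103% of all genes were. Without offsets it was also called higher with DESeq2 (adjusted p = 0.0198) and without the filter on low counts (adjusted p = 0.0182, edgeR). The Kcna median was -0.54 with the offset, with 6 of 6 still below 0. The ribosomal RNA share at PND0 was 1.80% to 2.78% in WT and 1.16% to 2.09% in KO. With that share as a covariate 0 channel genes and 0.0115% of all genes were called. The channel median was then -0.17 with 15 of 57 above 0. Scn8a was at log2 -0.30 and Cacna1h at log2 0.29 (adjusted p = 0.694 and 0.714, edgeR). At E16.5 the length trend ran the other way (rho 0.21 over all genes), and the offset left 43 of 55 above 0 with a median of 0.10.

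**Figure D5:**
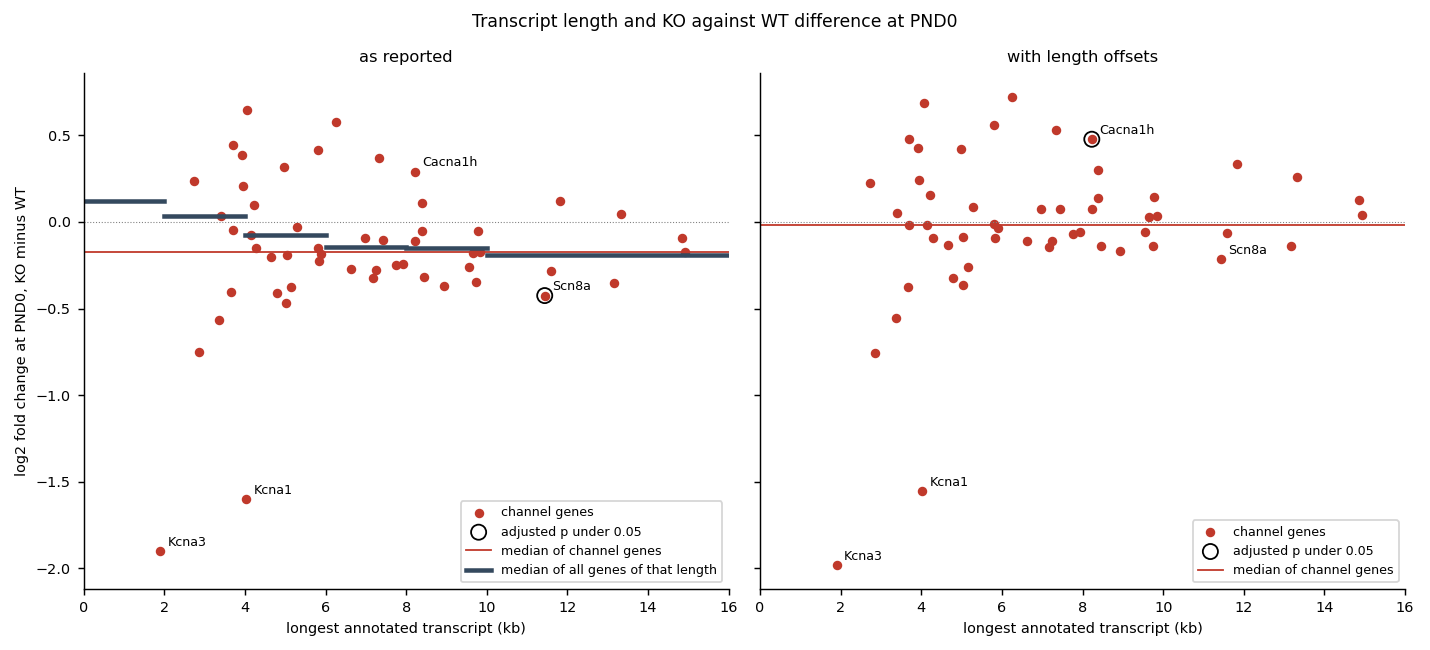
KO against WT log2 fold change of tested channel genes at PND0 against the length of the longest transcript in kb, as reported and with length offsets (points; circles, adjusted p under 0.05; red line, median of all 57 tested channel genes; blue lines, median of all genes in each length range; genes not reported here are not drawn). As reported the all-gene medians descend to -0.19 over 10000 bases; with offsets the channel median is -0.02.

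Whether the KO effect differed between stages was tested over all 32 libraries. Of 58 channel genes 0 were called, against 0.0256% of all genes, and 9 had an unadjusted p under 0.05, against 13.5% of all genes (edgeR; DESeq2 called 0). Scn8a ranked first (adjusted p = 0.223, edgeR). Without E12.5 KO replicate 1, the library rich in ribosomal RNA, 6 were called, among them Scn8a (adjusted p = 0.00159), Cacna1a (0.0269), Kcna1 (0.0273) and Cacna1b (0.0294), with 3.98% of all genes. Without E12.5 WT replicate 1, 0 were called.

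Among the partner genes, Cntn1 alone was called in any KO against WT comparison. It was lower at PND0, at 187 to 308 CPM in WT and 153 to 172 CPM in KO (log2 -0.57, SE 0.125, adjusted p = 0.0431, edgeR). It is a partner of sodium channels and of the axonal membrane complex, and its groups did not overlap. Over all genes 1.03% were called lower at PND0, and 0.149% with length offsets. Values of Cntn1 with length offsets, with the ribosomal RNA covariate or with a library left out are not given here.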

How the data were processed

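The authors deposited raw counts per gene symbol, 1 table per stage. Per the labels, polyadenylated RNA was read as 150-base pairs; per the submitters' processing notes HISAT2, SAMtools, featureCounts, DESeq2 and build mm10 were used. The annotation and the use of strand are not given in the sources used here, so overlapping and antisense genes may share counts. Each comparison was fitted on all genes of its 8 libraries with edgeR 4.0.16 (R 4.3.3): filterByExpr (minimum 10, total 15), TMM, robust quasi-likelihood F test, Benjamini-Hochberg adjustment, called at 0.05. Printed CPM use TMM over all 32 libraries. Lengths are of the longest GENCODE M21 transcript; length offsets were natural splines (5 degrees of freedom, genes of at least 1 CPM, prior count 2). The fits were also run on data simulated from the model they assume, without a length or ribosomal RNA trend, so that run cannot test for either trend. Members, lists and tests were chosen with earlier results of these data known. Named genes were those called, the 3 smallest p per KO fit, the highest per kb of each family, the 5 greatest WT rises and falls, and genes under 3 counts throughout; others are named with their family. Alternatives were RLE, no filter, DESeq2 1.42.0, covariates, a replicate block, 1 joint fit and leaving out each library. Results for some members are not reported here.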

Additional observations from a re-analysis of the deposited data

Results flagged for a closer look

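In 216 groups of 4 libraries of channel genes, 6 held 1 library far from the other 3 by Dixon's ratio, where chance gives about 1 in 20. The 6 are fewer than chance gives, so they cannot be told from chance and are listed as values only. Kcna5 was at 8.312 CPM in WT PND0 replicate 4, with the others at 4.186 to 4.881. Kcnh2 was at 43.54 CPM in KO PND0 replicate 4, against 60.08 to 63.07. Kcnd3 was at 104.5 CPM in WT PND0 replicate 3, against 73.36 to 77.38. Kcnd2 was at 30.36 CPM in WT E14.5 replicate 2, against 23.14 to 23.97. Scn3a was at 91.95 CPM in KO E14.5 replicate 1, against 97.28 to 97.85. Kcnc4 was at 9.322 CPM in WT E14.5 replicate 3, against 11.14 to 11.52.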

How the results depend on the processing

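The count of channel genes called in KO against WT at PND0, 3 as reported, was 14 without the filter on low counts, 10 with DESeq2, 5 in 1 fit of all 32 libraries (6.17% of all genes), 1 with length offsets (0.253%), 0 with the ribosomal RNA covariate (0.0115%), and 0 to 3 when leaving out each library. The replicate block gave 5 (2.04% of all genes), adding Cacna1b and Kcnd2. Deviations of same-numbered libraries had correlations of -0.271 to 0.374 within stages. The labels give no litter, so these values cannot show whether same-numbered libraries were paired. At E16.5, 0 became 4 without the filter and 1 with DESeq2. At E14.5, 0 became 1 without WT replicate 2, and leaving out the others gave 0. The test across stages ranged from 0 to 6 called when leaving out each library. The cause of these moves was not tested. The WT counts stayed within 1.5 times: E12.5 to PND0, 45 as reported, gave 45 to 46 when leaving out each library and 43 to 47 otherwise. WT comparisons of E12.5 with E16.5 (47 called) and of E14.5 with PND0 (46) were chosen after seeing the data. Of the other values, 4042 were the same, 65 lost and 47 gained a call, and 42 shares moved beyond 1 SD with the median transcript length; no direction of a called value reversed. Low counts limit Kcna1, Kcna3 and Scn10a, and 4 libraries a group limit every comparison.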
